A study of Mus musculus with 12 samples.

Results

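The genes described here are 42 markers of oligodendrocytes, the cells that wrap axons of the central nervous system in myelin, and of the progenitors they come from. They were taken by symbol from a list of names, drawn up with earlier results of these data known, out of the 24421 genes in the count files, and all 42 passed the filter on low counts that left 15622 genes. RNA was sequenced from the dorsal hippocampus of 129sv/C57BL/6j male mice, 4 to 5 months old. The mice were Mbnl2 WT or Mbnl2 KO, and each genotype was kept as House Control or Trained, which gave 4 groups of 3 libraries. The Mbnl2 product is a splicing regulator of the muscleblind family that binds RNA. The labels do not describe the Mbnl2 allele, the training task or the time between training and dissection. The different numbers in the titles are the only sign that the libraries came from separate mice. The p-values therefore set group differences against the spread between these samples.

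Oligodendrocyte progenitors carry the receptor Pdgfra and the proteoglycan Cspg4 (NG2) and divide throughout adult life. Cells that leave this state pass through a short committed stage marked by Gpr17, and the transcription factors Sox10, Olig2 and Myrf then drive the myelin programme, in which Mbp, Mag, Mog and many enzymes of lipid synthesis are produced together. In the dorsal hippocampus, myelinated fibres run mainly in the alveus, the fimbria and the angular bundle along its borders, and learning tasks have been studied for effects on new oligodendrocytes. In bulk tissue, fewer cells of a type and less RNA per cell cannot be told apart.

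Total counts per library were 19737929 to 27427076. The gene-level count of Mbnl2 was higher, not lower, in the libraries labelled KO. In CPM (counts scaled to a common library total), it was 315 to 365 in the 6 WT libraries. In the 6 libraries labelled KO it was 454 to 542 CPM. A gene-level count sums all exons and does not by itself check a deletion, so KO below means the libraries labelled KO. The mouse and library numbers in the titles fall into 2 series, with replicates 1 and 2 of every group in the first and replicate 3 in the second. Markers of regions next to the hippocampus differed widely between libraries. Summed levels ran from 58.1 to 15840.2 CPM for 16 choroid plexus markers, 159 to 739 CPM for 13 thalamus markers and 83.1 to 1070.0 CPM for 11 striatum and septum markers.

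Promoter sequence was matched for 30 of the 42 genes, from RefSeq (build GRCm38.p6), and read as the 250 bases before an annotated start. The other 12 were Mbp, Fa2h, Trf, Sox10, Myrf, Adamts4, Car2, Bcas1, Evi2a, Cryab, Gpr17 and Olig1. The sequences of 5 genes are shown because they hold both patterns described below: Mobp, Mag and Cnp followed Mbp closely from library to library, while Pdgfra and Cspg4 did not. Each is written 5′ to 3′ on the gene's own strand, and for Mag it is the first of 3 windows. Capitals mark core letters of SOX factors (ACAAAG or ACAAT) and of MYRF (CTGGCAC), on either strand.
Mobp (chr9:120149492-120149741, plus strand): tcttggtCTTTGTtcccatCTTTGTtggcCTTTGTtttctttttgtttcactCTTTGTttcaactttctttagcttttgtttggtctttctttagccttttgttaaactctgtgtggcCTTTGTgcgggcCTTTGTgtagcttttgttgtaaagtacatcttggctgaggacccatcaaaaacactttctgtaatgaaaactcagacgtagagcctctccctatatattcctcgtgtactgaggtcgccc
Mag (chr7:30914864-30915113, minus strand): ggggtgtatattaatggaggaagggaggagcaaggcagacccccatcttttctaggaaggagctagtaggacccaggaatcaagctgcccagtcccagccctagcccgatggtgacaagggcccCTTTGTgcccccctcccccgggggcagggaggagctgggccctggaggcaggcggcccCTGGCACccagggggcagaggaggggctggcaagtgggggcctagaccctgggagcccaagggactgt
Cnp (chr11:100574689-100574938, plus strand): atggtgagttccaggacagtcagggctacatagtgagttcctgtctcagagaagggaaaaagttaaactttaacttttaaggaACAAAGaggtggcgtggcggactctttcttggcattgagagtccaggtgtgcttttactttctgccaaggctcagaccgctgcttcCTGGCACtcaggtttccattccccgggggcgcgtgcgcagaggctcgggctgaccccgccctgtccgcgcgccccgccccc
Cspg4 (chr9:56864854-56865103, plus strand): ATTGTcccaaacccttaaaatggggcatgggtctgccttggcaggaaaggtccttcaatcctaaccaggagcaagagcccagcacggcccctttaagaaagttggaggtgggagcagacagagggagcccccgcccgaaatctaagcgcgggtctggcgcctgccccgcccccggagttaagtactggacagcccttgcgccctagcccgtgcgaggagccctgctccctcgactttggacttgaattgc
Pdgfra (chr5:75152001-75152250, plus strand): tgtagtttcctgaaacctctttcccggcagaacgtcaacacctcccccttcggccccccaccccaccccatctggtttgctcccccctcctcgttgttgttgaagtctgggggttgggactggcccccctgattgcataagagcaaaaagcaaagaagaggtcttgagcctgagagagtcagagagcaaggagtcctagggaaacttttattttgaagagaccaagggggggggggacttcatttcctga
The Mobp window held 6 SOX cores, all of them ACAAAG on the opposite strand, and no MYRF core. The Mag and Cnp windows each held 1 SOX core and 1 MYRF core, the Cspg4 window 1 SOX core and no MYRF core, and the Pdgfra window neither. Mal, Ugt8a and Ermn, not shown, also followed Mbp closely. The Mal and Ugt8a windows held neither core, and the Ermn window held 1 SOX core (ACAAT) and no MYRF core. ACAAAG was in a window of 8 of the 30 genes (26.7%, Mobp, Mag, Cnp, Opalin, Tspan2, Galnt6, Gjb1 and Klk6) and of 18.6% of 27025 genes with a window of the same length. ACAAT was in 8 of the 30 (26.7%, among them Cspg4, Olig2 and Enpp6) and in 30.9% of all. CTGGCAC was in 3 of the 30 (10%, Mag, Cnp and Hapln2) and in 4.83% of all, and the E-box CAGCTG was in 3 (10%) and in 14.7%. Both strands were searched. ACAAAG and ACAAT cannot share a base with each other, whereas the last bases of CTGGCAC can belong to either. A match is a run of letters, not a measured site.

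The myelin genes varied several-fold between libraries of the same group, and they did so together. The 42 genes summed to 3942, 12954 and 13487 in WT house controls, 8058, 3320.1 and 8857 in WT trained, 6259, 15289 and 8436 in KO house control and 4288, 10032 and 7078 in KO trained libraries (CPM), which was 0.319% to 1.56% of all counts. KO house control replicate 2 was highest and WT trained replicate 2 was lowest, and both WT house control replicate 1 and KO trained replicate 1 lay close to the lowest, so all 4 groups overlapped. By single gene, KO house control replicate 2 held the highest level of 35 of the 42, and WT trained replicate 2 held the lowest of 41. The exceptions at the top were Opalin, Trf and Cryab (WT house control replicate 2), Car2 and Gsn (WT house control replicate 3), Gpr17 (KO house control replicate 3) and Klk6 (KO trained replicate 2). The exception at the bottom was Gpr17, lowest in WT house control replicate 1.

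**Figure D1:**
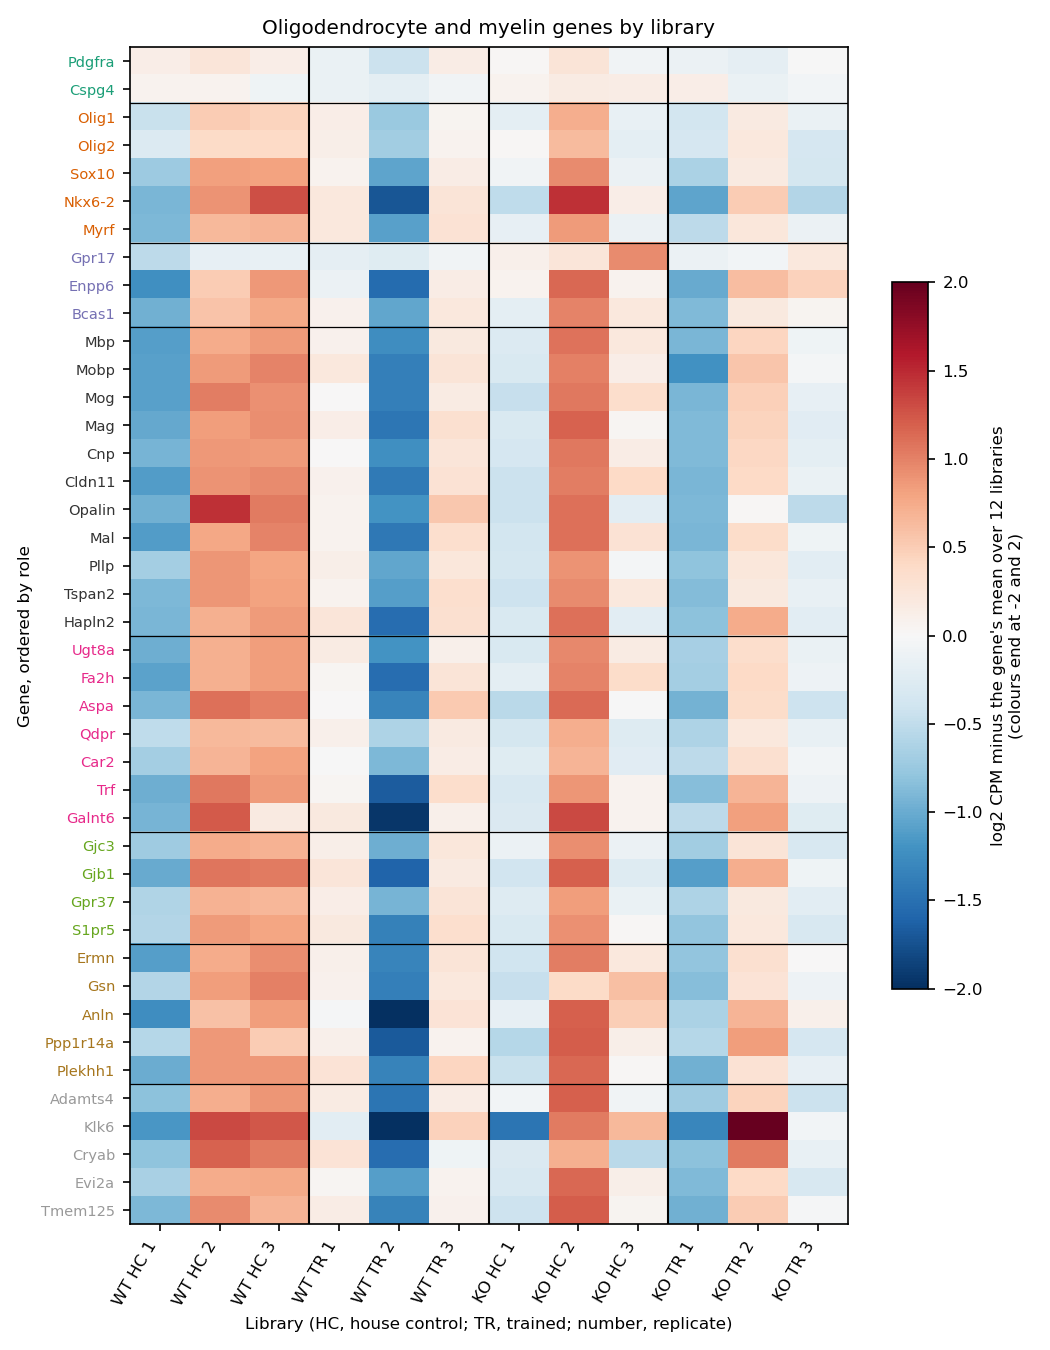
Each row is 1 of the 42 genes in the order of their roles, each column 1 library, and colour is log2 CPM minus that gene's mean over the 12 libraries. Most rows share 1 pattern, red in KO house control replicate 2 and in WT house control replicates 2 and 3 and blue in WT trained replicate 2, WT house control replicate 1 and KO trained replicate 1. The rows of Pdgfra, Cspg4 and Gpr17 do not.

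The pooled SD of log2 CPM within groups had a median of 0.83 over the 42 genes, against 0.20 over all 15622 genes tested, and 40 of the 42 lay above that tested median. The highest library exceeded the lowest by a median of 5.19-fold over the 42, against 1.64-fold over the 15431 tested genes with no 0 count. The ratio was above 4 for 31 of the 42 (73.8%) and for 13.3% of tested genes, and it was below 2 only for Pdgfra and Cspg4. The spread is between libraries that carry the same label, so it is also the error against which each group difference below was tested.

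**Figure D2:**
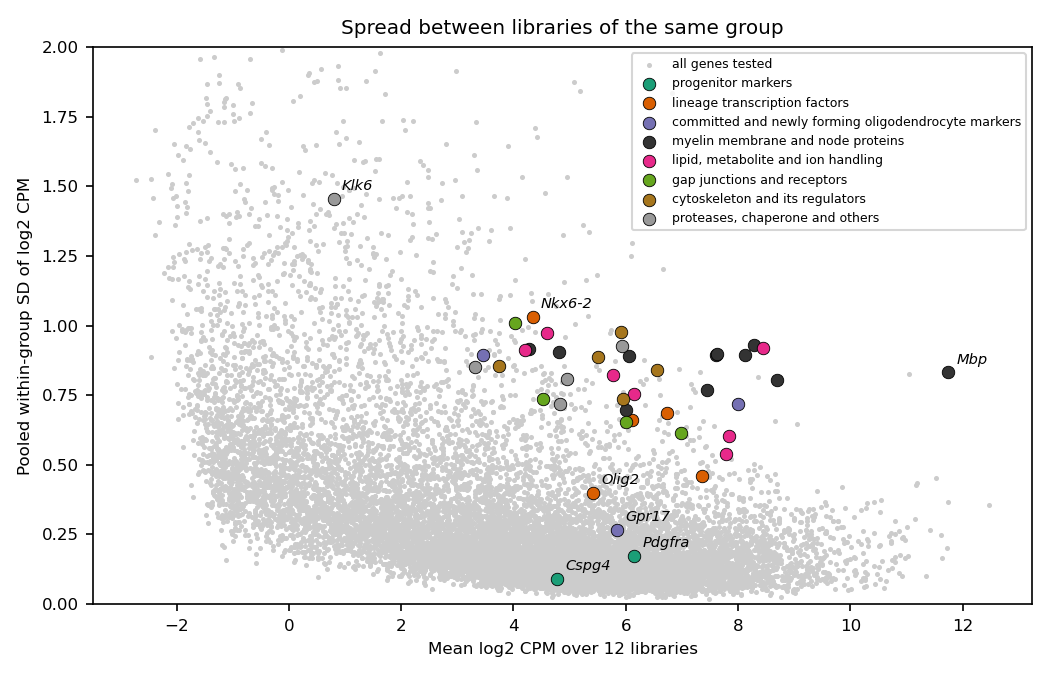
Each point is a gene, placed by its mean log2 CPM over 12 libraries (x axis) and its pooled SD of log2 CPM within the 4 groups (y axis, which ends at 2), with the 42 genes coloured by role over all tested genes in grey. Most of the 42 lie between 0.4 and 1.1, above most genes of like level, while Cspg4 (0.09), Pdgfra (0.17) and Gpr17 (0.27) lie lower and Klk6 (1.46) higher.

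Pdgfra, the receptor for the growth factor that sustains progenitors, was steady across libraries. It measured 77.7, 84.0 and 78.4 CPM in WT house controls, 65.3, 53.0 and 78.8 in WT trained, 72.5, 84.8 and 67.9 in KO house control and 65.9, 62.6 and 70.7 in KO trained libraries. The lowest value was WT trained replicate 2 and the highest KO house control replicate 2, as for the myelin genes, but only 1.60-fold apart. Cspg4, a surface proteoglycan of the same cells, measured 28.5, 28.7 and 25.7 CPM in WT house controls, 24.8, 23.8 and 26.1 in WT trained, 28.7, 30.7 and 30.4 in KO house control and 30.0, 24.9 and 26.3 in KO trained libraries. Its highest and lowest libraries differed 1.29-fold, and 12.7% of tested genes had a smaller SD within groups.

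All 5 lineage transcription factors varied more than the progenitor markers. Olig1, a basic helix-loop-helix factor of the whole lineage, measured 121, 233 and 223 CPM in WT house controls, 179, 98.7 and 170.1 in WT trained, 144, 272 and 149 in KO house control and 128, 185 and 149 in KO trained libraries. Sox10, which switches on myelin genes, measured 41.9, 122 and 120.2 CPM in WT house controls, 72.3, 33.2 and 76.2 in WT trained, 65.9, 133 and 63.8 in KO house control and 44.8, 78.0 and 54.0 in KO trained libraries. In both genes, replicate 1 of the WT house controls lay below all 3 KO house control libraries and the other 2 WT house controls lay above 2 of them. Olig2, the partner of Olig1, ran from 26.2 to 66.1 CPM (2.53-fold), and Myrf, the membrane-bound factor that myelin genes require, from 49.6 to 191 CPM (3.86-fold). Nkx6-2, a homeodomain factor of maturing oligodendrocytes, had the widest range of the 5, from 6.14 to 55.4 CPM (9.01-fold), and shares 12.9% of its exon bases with Inpp5a on the opposite strand. The sources used here do not say whether counting used strand.

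Gpr17, a receptor present for a short time in committed cells, had its own pattern. It measured 40.1, 51.5 and 52.0 CPM in WT house controls, 50.7, 48.7 and 54.8 in WT trained, 62.1, 68.1 and 111 in KO house control and 53.1, 55.3 and 66.4 in KO trained libraries. All 3 KO house control libraries lay above all 3 WT house control libraries, with replicate 3 far above the rest, and the WT and KO trained groups overlapped. Bcas1, a protein of newly forming myelinating cells, measured 132, 379 and 430.4 CPM in WT house controls, 273, 125 and 296 in WT trained, 222, 511 and 295 in KO house control and 139, 293 and 264 in KO trained libraries. It had its 3 highest libraries and its lowest in common with Mbp, and none of its 4 groups was apart from the others. Enpp6, a phosphodiesterase used to mark newly forming oligodendrocytes, ran from 3.73 to 24.0 CPM (6.44-fold), also with WT trained replicate 2 lowest and KO house control replicate 2 highest.

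Mbp, which holds the inner faces of the myelin membrane together, was the most abundant of the 42. It measured 1596, 5729 and 6150.5 CPM in WT house controls, 3619, 1445 and 3920.2 in WT trained, 2825, 7262 and 3943 in KO house control and 1812, 4582 and 3233 in KO trained libraries. The WT house control group alone spanned almost the whole range, with replicate 1 next to the lowest of the 12 libraries and replicates 3 and 2 just below the highest. Opalin, a membrane glycoprotein of mature oligodendrocytes, measured 9.92, 53.4 and 39.7 CPM in WT house controls, 20.3, 8.39 and 28.0 in WT trained, 14.3, 41.3 and 16.7 in KO house control and 10.3, 19.7 and 13.4 in KO trained libraries. WT house control replicate 2 was its highest library and the 3 trained KO libraries lay within the range of the trained WT libraries. The other 9 myelin membrane and node genes spanned 3.84-fold (Pllp) to 6.19-fold (Mag) between their lowest and highest libraries. They encode the adhesion protein Mag, the surface antigen Mog, the basic protein Mobp, the phosphodiesterase Cnp, the tight-junction protein Cldn11, the raft proteins Mal and Pllp, the tetraspanin Tspan2 and the nodal matrix protein Hapln2. Of the exon bases of Pllp, 54.2% are shared with a gene on the opposite strand that is not in the count files.

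**Figure D3:**
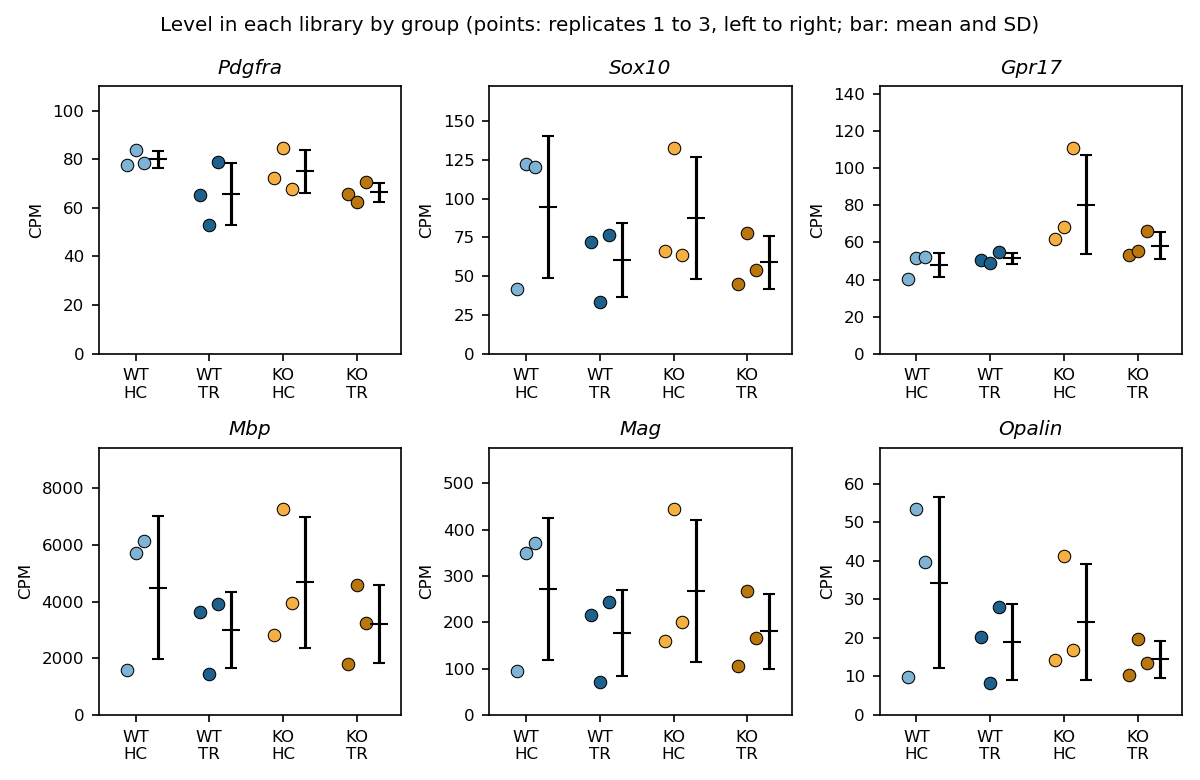
Each panel shows 1 gene, with 1 point per library (y axis, CPM from 0; x axis, the 4 groups; replicates 1 to 3 from left to right) and a bar for the group mean and SD. Sox10, Mbp, Mag and Opalin spread widely within every group. Pdgfra stays between 53.0 and 84.8 CPM, and Gpr17 stays between 40.1 and 68.1 CPM in 11 libraries and reaches 111 CPM in KO house control replicate 3.

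Among the genes of lipid, metabolite and ion handling, Aspa, which splits N-acetylaspartate into acetate for myelin lipids, measured 9.67, 39.0 and 36.8 CPM in WT house controls, 18.4, 7.31 and 26.1 in WT trained, 12.6, 40.0 and 18.1 in KO house control and 9.53, 23.6 and 13.7 in KO trained libraries. Qdpr, which recycles tetrahydrobiopterin, measured 155, 346 and 341 CPM in WT house controls, 235, 143 and 250.3 in WT trained, 172, 364 and 184 in KO house control and 143, 255 and 199 in KO trained libraries. Both had their 3 highest libraries and their lowest in common with Mbp, but the range of Qdpr was 2.55-fold and that of Aspa 5.47-fold. Fa2h and Ugt8a, which make the galactolipids of myelin, spanned 5.69-fold and 4.44-fold. Car2, a carbonic anhydrase, spanned 3.27-fold, Trf, the iron carrier transferrin, 6.58-fold, and Galnt6, a glycosyltransferase, 9.52-fold. Trf shares 63.5% of its exon bases with a gene model on the same strand that is not in the count files.

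Of the gap junction genes and receptors, Gpr37, a receptor of maturing oligodendrocytes, measured 83.6, 207 and 202 CPM in WT house controls, 139, 66.6 and 152 in WT trained, 106, 226 and 116 in KO house control and 82.6, 146 and 110.1 in KO trained libraries. S1pr5, a receptor for sphingosine 1-phosphate, measured 15.4, 41.8 and 39.9 CPM in WT house controls, 26.3, 8.99 and 29.2 in WT trained, 18.7, 43.6 and 23.5 in KO house control and 13.4, 26.8 and 18.4 in KO trained libraries. The connexins Gjc3 and Gjb1 spanned 3.74-fold and 6.93-fold. In all 4 genes WT trained replicate 2 was lowest and KO house control replicate 2 highest.

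Ermn, a cytoskeletal protein of mature oligodendrocytes, measured 44.2, 158 and 180.5 CPM in WT house controls, 102, 38.0 and 113 in WT trained, 72.0, 192 and 109 in KO house control and 54.7, 118 and 94.5 in KO trained libraries. Gsn, the actin-severing protein gelsolin, measured 41.2, 111 and 124 CPM in WT house controls, 65.5, 23.9 and 71.3 in WT trained, 45.0, 80.7 and 93.7 in KO house control and 34.2, 75.1 and 57.5 in KO trained libraries. Ermn had its 3 highest libraries and its lowest in common with Mbp, whereas Gsn was highest in WT house control replicate 3 and its KO house control replicate 3 exceeded replicate 2. Anln, a septin-binding scaffold, spanned 9.72-fold, Ppp1r14a, a phosphatase inhibitor, 7.40-fold, and Plekhh1 5.55-fold.

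The chaperone gene Cryab measured 34.9, 138 and 125 CPM in WT house controls, 73.7, 21.2 and 57.6 in WT trained, 50.2, 99.4 and 41.8 in KO house control and 34.5, 125 and 54.8 in KO trained libraries. Evi2a, which lies within an intron of Nf1, measured 18.2, 47.6 and 47.9 CPM in WT house controls, 29.3, 13.2 and 29.8 in WT trained, 22.7, 63.2 and 30.7 in KO house control and 15.5, 37.3 and 22.7 in KO trained libraries. KO trained replicate 2 stood out for Cryab, the second highest of the 12 libraries, and not for Evi2a. The same library was the highest for Klk6, a secreted protease at a low level, which measured 0.720, 4.00 and 3.80 CPM in WT house controls, 1.39, 0.241 and 2.22 in WT trained, 0.586, 3.31 and 2.51 in KO house control and 0.651, 7.47 and 1.55 in KO trained libraries. Klk6 had 6 reads in its lowest library and 162 in its highest. Adamts4, a metalloprotease of mature oligodendrocytes, spanned 6.28-fold and the membrane protein Tmem125 5.82-fold.

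Levels can be compared between genes only per length. Per kilobase of exon, Mbp had the highest level of the 42 genes in each of the 12 libraries, 2.14 to 3.61 times that of the next gene, which was Qdpr in 7 libraries and Cnp, Trf or Cldn11 in the rest. Averaged over the 12 libraries, Mbp stood at 454 CPM per kilobase, Qdpr at 130.0, Cnp at 128, Trf at 121.2, Cldn11 at 121, Mal at 115 and Car2 at 101. Libraries of 1 group differed more than these neighbours did. In WT house controls the level per kilobase was 530.4 ± 297 CPM for Mbp (SD, n = 3), 157 ± 60.9 for Qdpr, 158 ± 84.6 for Cnp and 125 ± 57.6 for Car2. The ranges of 1 SD around Mbp and Cnp met there, although Mbp was above Cnp in each library, and those of Qdpr, Cnp and Car2 overlapped. These SDs are between libraries in which the genes rose and fell together. They therefore do not measure how far genes differ within a library, and these differences were not tested. The lowest were Cspg4 at 2.29, Enpp6 at 1.94 and Klk6 at 1.57 CPM per kilobase. Pdgfra stood at 7.16, and Gpr17 at 11.5. Levels are less certain for genes that share exon bases with another gene, which besides those named were Evi2a (19.2%, same strand), Qdpr (18.6%), Cryab (17.0%), Plekhh1 (14.8%), Bcas1 (11.7%) and Galnt6 (11.4%, each on the opposite strand).

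The ratio of each gene to Mbp in the same library shows how tightly the genes moved together. The SD of the log2 ratio over the 12 libraries was below 0.3 for 28 of the other 41 genes. It was 0.08 for Ermn, 0.08 for Cnp, 0.09 for Mal, 0.11 for Ugt8a and 0.11 for Mag. Mag stood at 49.6 to 62.4 CPM per 1000 CPM of Mbp in all 12 libraries. At the other end, the SD was 0.75 for Cspg4, 0.75 for Klk6, 0.72 for Gpr17, 0.66 for Pdgfra, 0.45 for Olig2 and 0.38 for Olig1. A high SD can have unlike origins. Cspg4 stayed between 23.8 and 30.7 CPM while Mbp varied, whereas Klk6, at a low level, ran from 0.241 to 7.47 CPM. Pdgfra stood at 11.7 to 48.7 CPM per 1000 CPM of Mbp. The libraries that were low in Mbp had the most Pdgfra per Mbp, while the level of Pdgfra itself ran only from 53.0 to 84.8 CPM. These ratios describe only 12 libraries, and the transcripts of a library share 1 tissue piece.

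A list of 34 further oligodendrocyte genes, none of them among the 42, had its 3 highest and 3 lowest libraries in common with the sum of the 42, with sums from 1972 CPM (WT trained replicate 2) to 6944 CPM (KO house control replicate 2). A list of 16 further genes of progenitors and committed cells varied less in its sum, from 785 to 993 CPM. A sum does not show whether each of its genes was level. These lists were drawn up with results of these data known.

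Markers of other cells and regions moved with the myelin genes in part. The 16 choroid plexus markers summed to 149.8, 8350.2 and 15840.2 in WT house controls, 3477, 58.1 and 8276 in WT trained, 2332, 87.7 and 2812 in KO house control and 82.8, 4939.7 and 2808 in KO trained libraries (CPM). They were highest in WT house control replicates 3 and 2, which followed KO house control replicate 2 in the sum of the 42 genes, but in KO house control replicate 2, highest for the 42, they summed to 87.7 CPM. The 11 striatum and septum markers summed to 719 CPM in WT house control replicate 3, 796 CPM in KO house control replicate 2 and 1070.0 CPM in KO trained replicate 2, and to 83.1 to 209.6 CPM in the other 9 libraries. The 13 thalamus markers were highest in KO house control replicate 3 (600.3 CPM) and in replicates 2 (608 CPM) and 3 (739 CPM) of the WT house controls. The 10 leptomeninges markers summed to 70.8 to 1045 CPM and the 9 endothelium markers to 206 to 363 CPM. Among neurons of the hippocampus itself, the 8 dentate granule cell markers summed to 1113, 637 and 476 in WT house controls, 651, 1205 and 716 in WT trained, 858, 256 and 613 in KO house control and 721, 328 and 577 in KO trained libraries (CPM). They were lowest in KO house control replicate 2, the highest library for the 42 genes, and highest in WT trained replicate 2 and WT house control replicate 1. The 6 CA1 pyramidal cell markers summed to 401 to 919.5 CPM. The 8 general neuronal markers were lowest in WT house control replicates 2 and 3, at 4567 and 4997 CPM, against 5867 to 7377 CPM in the other 10. No gene of the lists named here was at 0 in all libraries. The 11 astrocyte markers (4619.8 to 7261 CPM) and 11 microglia markers (379.5 to 613 CPM) varied less than the 42 genes, whose sum ran from 3320.1 to 15289 CPM. What part any of these had in the level of the myelin genes was not tested.

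**Figure D4:**
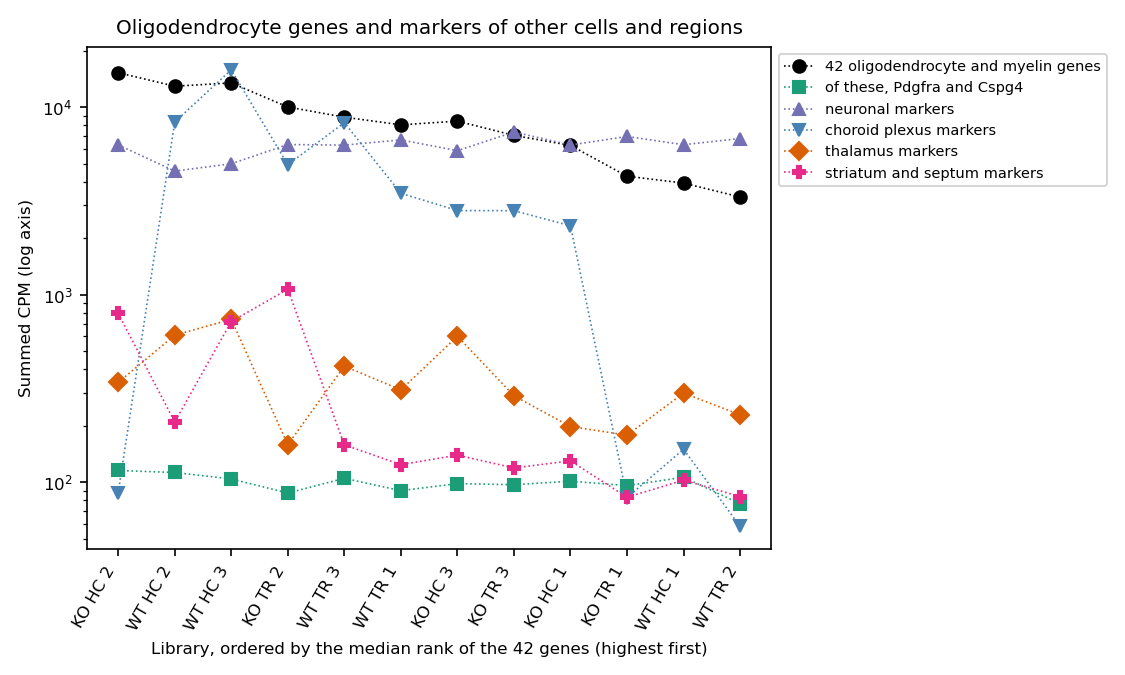
Libraries are ordered by the median rank of the 42 genes (x axis, highest first), and the y axis is summed CPM on a log axis for the 42 genes, for Pdgfra and Cspg4 alone and for markers of neurons, choroid plexus, thalamus and striatum with septum. The sum of the 42 falls from 15289 to 3320.1 CPM, the sum of Pdgfra and Cspg4 stays between 76.8 and 115.5 CPM, and the choroid plexus markers are below 150 CPM in 4 libraries, including the highest and the lowest for the 42 genes.

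The first question of the design is how KO and WT differed in each state. Among house controls, the 42 genes had a median log2 fold change (KO over WT) of -0.06, with 13 above 0 and 29 below, against a median of -0.00079 over all tested genes. Most of the 42 moved together between libraries, so counts of genes above or below 0, here and below, are not separate results. By edgeR's quasi-likelihood test, 0 of the 42 passed an adjusted p of 0.05 in a contrast where 0.0128% of all tested genes did, 1 (Gpr17) had an unadjusted p under 0.05 where 10.7% of all did, and by DESeq2, 1 (Gpr17) passed where 1.18% of all did. Mbp differed by 0.06 (SE 0.57, edgeR adjusted p = 0.979). Among trained mice the median of the 42 was 0.06, with 29 above 0 and 13 below. By edgeR, 0 passed (0.0128% of all), 0 had an unadjusted p under 0.05 (6.45% of all), and 0 passed by DESeq2 (0.627% of all). Mbp differed by 0.10 (SE 0.57, edgeR adjusted p = 0.996). Over both treatments, the median was -0.0017, with 20 above 0 and 22 below: 0 passed by edgeR (0.576% of all), 1 (Gpr17) had an unadjusted p under 0.05 (14.4% of all), and DESeq2 called 1 (Gpr17; 4.58% of all). Mbp differed by 0.08 (SE 0.40, edgeR adjusted p = 0.950), and Opalin, the lowest of the 42 on this mean effect, by -0.45 (SE 0.44, edgeR adjusted p = 0.681). Of the 16 further genes of progenitors and committed cells, 13 were above 0 on this mean effect and 3 below (median 0.05). By edgeR, 0 of the 16 passed and 4 had an unadjusted p under 0.05 (14.4% of all).

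Gpr17 had the smallest unadjusted p of the 42 genes between genotypes in house controls. In house controls its mean level was 1.68-fold higher in KO than in WT, a log2 difference of 0.75 (SE 0.20, edgeR adjusted p = 0.299), with an unadjusted p of 0.0036. DESeq2 gave 0.75 and an adjusted p of 0.0450, and the authors' deposited table gives 0.75 with an adjusted p of 0.217. After leaving out KO house control replicate 3, the highest library, the log2 difference was 0.44. In trained mice the difference was 0.18 (SE 0.20, edgeR adjusted p = 0.967), and averaged over treatments it was 0.46 (SE 0.14, edgeR adjusted p = 0.173); DESeq2 gave an adjusted p of 0.0470 for the average. The difference between the genotype effects was -0.57 (SE 0.28, edgeR adjusted p = 1.000), so the 2 treatments were not shown to differ. Gpr17 shares 3.62% of its exon bases with Lims2 on the opposite strand, which stood at 7.43 to 16.5 CPM. The Gpr17 gene lies at chr18:31942997-31949636 on the minus strand (GENCODE M21 annotation of GRCm38).

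The libraries of the 2 genotypes overlapped for nearly all of the 42 genes. In house controls, Cspg4 and Gpr17 had all 3 KO libraries above all 3 WT libraries, 2 of the 42 against 13% of tested genes whose groups did not overlap. The log2 difference of Cspg4 was 0.11 (SE 0.08, edgeR adjusted p = 0.642). In trained mice, 0 of the 42 separated the genotypes, against 14% of tested genes, and over all libraries of a genotype 0 did, against 1.78%.

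The second question is what training did. The 42 genes were lower in trained than in house control libraries on average, and no single gene of them passed an adjusted p of 0.05. The difference of the 42 as a set was not tested. Averaged over genotypes, all 42 had a log2 fold change below 0, from -0.85 to -0.15 with a median of -0.54, against a median of -0.01 over all tested genes. By edgeR, 0 of the 42 passed (0% of all) and 2, Cspg4 and Pdgfra, had an unadjusted p under 0.05 (11.2% of all), and DESeq2 called 0 (0.442% of all). Within WT the median was -0.62, with 41 below 0, 0 passed (0% of all by edgeR, 0.064% by DESeq2, which called 0 of the 42) and 0 had an unadjusted p under 0.05 (9.82% of all). Within KO the median was -0.47, with 40 below 0, 0 passed (0% of all by edgeR, 0.0448% by DESeq2, which called 0 of the 42) and 1, Gpr17, had an unadjusted p under 0.05 (3.01% of all). None of the 42 separated trained from house control libraries in WT (14.8% of tested genes did), in KO (7.88%) or over both genotypes (0.486%).

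By role, the median effect of training was nearest 0 in the progenitor markers, at -0.23 (SE 0.09) for Pdgfra and -0.15 (SE 0.06) for Cspg4, which are also the genes with the least spread. Their edgeR adjusted p was 0.433 for both. The transcription factors had a median of -0.38, from -0.33 to -0.85, and Sox10 stood at -0.61 (SE 0.32, edgeR adjusted p = 0.462). The committed and newly forming cell markers had a median of -0.49, the myelin membrane genes -0.60, the lipid and ion handling genes -0.52, the gap junctions and receptors -0.54, the cytoskeletal genes -0.54, and the last group -0.58. Mbp stood at -0.56 (SE 0.40, edgeR adjusted p = 0.541), Opalin at -0.80 (SE 0.44, edgeR adjusted p = 0.473), Aspa at -0.66 (SE 0.44), S1pr5 at -0.57 (SE 0.36), Gsn at -0.59 (SE 0.35) and Evi2a at -0.64 (SE 0.36). The standard errors of these 7 genes were 0.32 to 0.44, and none of the 7 passed, so their differences were not told apart from 0 here. Within each genotype, the log2 fold change of Mbp was -0.58 (SE 0.57) in WT and -0.54 (SE 0.57) in KO, and Pdgfra stood at -0.28 (SE 0.13) in WT.

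**Figure D5:**
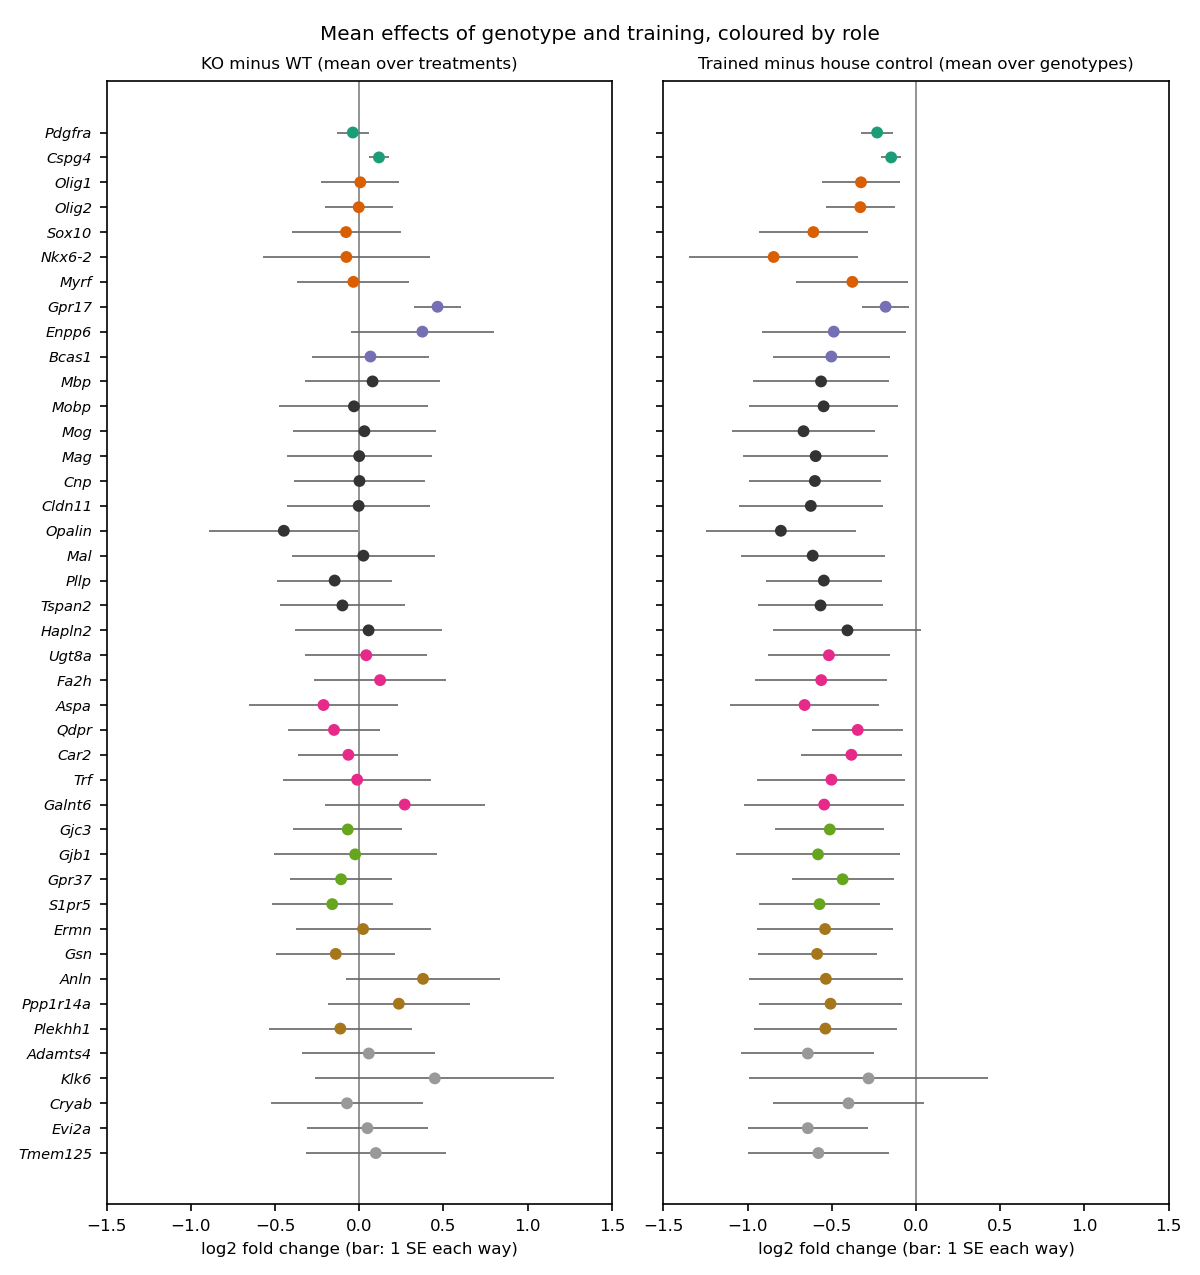
Each point is the log2 fold change of 1 gene averaged over the other factor (left, KO minus WT; right, trained minus house control) with a bar of 1 standard error each way, coloured by role as in the plot of spread. On the left the points lie on both sides of 0, with Gpr17 at 0.46 the highest, and on the right all 42 lie below 0, from -0.15 (Cspg4) to -0.85 (Nkx6-2).

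Other marker lists also shifted with training on this average, and edgeR called none of their genes. Below 0 were all 11 astrocyte markers (median -0.28, 6 with an unadjusted p under 0.05), all 9 endothelium markers (-0.27, 5), 10 of 11 microglia markers (-0.17, 5), all 13 thalamus markers (-0.80, 6) and 9 of 10 leptomeninges markers (-0.79, 2). All 16 choroid plexus markers (-0.33) and all 11 striatum and septum markers (-0.90) were below 0 as well, with 0 at an unadjusted p under 0.05 in each. Of the 16 further genes of progenitors and committed cells, 12 were below 0 and 4 above (-0.19, 5). Over all tested genes, 11.2% had an unadjusted p under 0.05 by edgeR in this contrast. All 8 neuronal markers were above 0 (0.19, 5), as were all 6 CA1 markers (0.27, 0), and 6 of 8 dentate granule markers were (0.04, 0). A shift below 0 was therefore shared with these lists, and their part in that of the 42 genes was not tested.

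The training difference rested on few libraries. Without KO house control replicate 2, the highest library, the median of the 42 within KO was -0.04 in place of -0.47, and the mean effect was -0.30 in place of -0.54. Without WT trained replicate 2, the lowest, the median within WT was -0.26 in place of -0.62. Without the 3 libraries highest in thalamus markers (KO house control replicate 3 and replicates 2 and 3 of the WT house controls), which leaves 1 WT house control library, the mean effect had a median of 0.08 with 28 of the 42 above 0, the effect in WT was 0.76 and the genotype difference in house controls was 1.44. Within the first series of numbers alone, with 2 libraries a group, the median training effect was -0.59 and the median genotype effect 0.32, with 41 of the 42 above 0. Without WT house control replicate 1, low in myelin genes, the mean training effect was -0.74, and 16 of the 42 had an unadjusted p under 0.05 by edgeR, where 23.3% of all 15827 genes tested did. Without KO house control replicate 2 the median genotype difference in house controls was -0.53, and without WT trained replicate 2 that in trained mice was -0.24 in place of 0.06. Without KO house control replicate 2 and KO trained replicate 2, the median genotype effect over both treatments was -0.41 and the training effect -0.49. WT house control replicate 3 was also high in striatum and septum markers; without all 3, a choice made after seeing the data, these were -0.32 and -0.37. The median genotype effect thus moved with the libraries kept, and none of the 42 passed by edgeR in any of these. A fit on the second series could not be made, since it holds 1 library a group.

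The third question is whether training acted differently in the 2 genotypes. The difference between the effects had a median of 0.11 over the 42 genes, with 37 above 0 and 5 below. Since most of these genes moved together, the counts are not 42 separate results. Of the 42, 0 passed by edgeR (0% of all) or DESeq2 (0% of all), and 0 had an unadjusted edgeR p under 0.05 (1.5% of all). The largest values were those of Klk6, 1.73 (SE 1.43, edgeR adjusted p = 1.000), and Cryab, 1.13 (SE 0.90, edgeR adjusted p = 1.000). Without KO trained replicate 2 they were 0.19 for Klk6 and 0.46 for Cryab.

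The authors' deposited table for each pairwise comparison likewise held 0 of the 42 with an adjusted p under 0.05: the smallest adjusted p of any of them was 0.217 for KO against WT in house controls (0.558% of genes with an adjusted p in that table passed), 0.960 in trained mice (0.834%), 0.577 for training in WT (0.117%) and 1.00 for training in KO (0.0716%). The medians of the log2 fold changes of the 42 in the authors' deposited tables were -0.06, 0.05, -0.62 and -0.46 in that order.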

How the data were processed

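Polyadenylated RNA from 12 dorsal hippocampus samples was sequenced, per the labels' protocols. The authors deposited raw counts of reads per gene symbol, made, per the submitters' processing notes, with cutadapt 1.18, TopHat2 2.1.1, Bowtie2 2.3.4.2 and HTSeq 0.9.1 on mm10. They also deposited 4 comparison tables whose columns, per the file headers, are the mean signal (normalized counts), the log2 fold change and its error, the test's score, and p-values before and after adjustment. Counts were analysed with edgeR 4.0.16 in R 4.3.3: filterByExpr (minimum count 10, minimum total 15) kept 15622 genes, scaling was TMM, and 1 quasi-likelihood model of the 4 groups (8 residual degrees of freedom) gave 7 contrasts with Benjamini-Hochberg adjustment over all genes tested. CPM values use TMM-scaled totals. The test was checked on simulated counts. Groups were taken from the labels. Alternatives were DESeq2 1.42.0, other scaling and filters, the number series, and libraries left out. At the totals found here, 3 counts are 0.109 to 0.152 CPM. Values in every library are given for the gene with the highest level per kilobase and the gene with the smallest p in each role, and for any whose groups do not overlap with a log2 difference above 0.5. Klk6 was added after its values were seen. Gene positions and exon lengths are from GENCODE M21. The 42 genes and all lists were chosen with earlier results of these data known.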

Additional observations from a re-analysis of the deposited data

How the results depend on the processing

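Each count of genes passing the threshold was recomputed under 22 alternatives (21 for the mean effects and the interaction). It stayed at 0 of the 42 in each, including the range from 0 to 0 when 1 library was left out, except that DESeq2 called 1 gene, Gpr17, for KO against WT in house controls and 1, again Gpr17, for the mean over treatments. No paired analysis was possible because no label ties single libraries of different groups; with the number series as a covariate, 0 of the 42 passed in each of the 7 contrasts, and their median was -0.02 between genotypes in house controls, 0.09 in trained mice and 0.03 on average, -0.62 for training in WT, -0.48 in KO and -0.55 on average, and 0.10 for the interaction. Without the 3 libraries highest in thalamus markers, these log2 fold changes turned direction: for training averaged over genotypes, Mbp 0.13, Aspa 0.045, Gsn 0.10 and Klk6 0.78, for training in WT, Mbp 0.91, for the mean genotype effect, Opalin 0.55, and for the interaction, Mbp -1.56, Cryab -0.61 and Klk6 -0.12. Without KO house control replicate 2 and KO trained replicate 2, Mbp turned to -0.41 (KO against WT in house controls), -0.24 (trained) and -0.32 (mean). Without WT house control replicate 3 too (chosen after seeing the data), these were -0.11, -0.25 and -0.18, and the interaction -0.14. With the first number series alone the interaction of Mbp was -0.13. When 1 library was left out, Mbp ranged from -0.41 to 0.35 between genotypes in house controls, -0.24 to 0.38 in trained mice, -0.15 to 0.23 on average and -0.30 to 0.52 for the interaction, and Gpr17 from -0.0062 to 0.17 for training in WT. For Gpr17 in house controls the range was 0.44 to 0.91, with adjusted p over all alternatives from 0.0450 to 0.878. The cause of these shifts was not tested. Each contrast rests on 3 libraries a group, and the errors include the spread of the myelin genes between libraries of a group. The part of counting depth in these errors was not tested.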
